A study of Mus musculus with 12 samples.

Results

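The comparison is between 18-month-old mice with and without an adipocyte-specific knockout of Crtc2, measured by RNA sequencing of primary adipocytes from epididymal fat, the large fat pad of the male abdomen. It uses 6 of the 12 libraries of the series, chosen by the age and genotype in their labels. In 3 of them, here called AKO (replicates 1 to 3), the label gives an adipocyte-specific Crtc2 knockout, and in the other 3, here called WT, it gives the floxed control, wild type for Crtc2. All mice are of the C57BL/6N strain, and the labels used here do not name the promoter that drives the recombinase. The other 6 libraries, of 3-month-old mice, lend only their spread to the fit, apart from a test of whether the differences depend on age. Nothing in the labels ties a library to its own mouse, so the p-values cover library-to-library spread, which may be technical.

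Crtc2 works by joining CREB, a DNA-binding protein that sits on cyclic AMP response elements (CRE) in promoters, and by raising its activity there. In resting cells the salt-inducible kinases (SIK) hold Crtc2 in the cytoplasm. Cyclic AMP, which catecholamines raise in fat cells through beta-adrenergic receptors, switches these kinases off through protein kinase A and lets Crtc2 enter the nucleus. In white fat the same signal drives lipolysis, the release of stored fatty acids, and insulin opposes it.

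The 6 old libraries held 45935795 to 61125366 estimated reads, and 15068 of 24541 gene symbols had enough reads to be tested. The libraries carried adipocyte RNA: Adipoq, which encodes adiponectin, was at 4149, 3687 and 2807 CPM (reads scaled to a common library size) in WT replicates 1 to 3 and at 5182, 5685 and 4710 CPM in AKO. The macrophage marker Adgre1 was present too, at 74.2, 41.2 and 299 CPM in WT and 15.1, 17.3 and 11.2 CPM in AKO. The T cell marker Cd3e did not pass the filter on low counts, but 16 of 24 T and NK cell markers did. The summed level of these 24 was 27.0, 24.1 and 73.4 CPM in WT and 12.2, 13.9 and 10.8 CPM in AKO. A pair of libraries stood apart. WT replicate 3 lay at 80.9 on the first principal component (57.2% of the variance of the 6 libraries), beyond 26.9 and 14.1 of the other WT libraries and far from the AKO libraries at -33.7, -38.5 and -49.6. In AKO replicate 1 the summed level of 12 testis germ cell genes, among them the protamine Prm1, was 102.5 CPM, against 0.268 to 5.15 CPM in the other 5 libraries. Results are therefore also given without the libraries that decide them.

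Crtc2 itself was higher, not lower, in the libraries labelled AKO. Its level was 45.3, 51.6 and 49.97 CPM in WT and 151, 161 and 154 CPM in AKO, a log2 difference of 1.66 ± 0.21 (fitted value ± SE, n = 3 libraries per group; edgeR adjusted p = 0.0125). The groups did not overlap, and the libraries within each group lay close together. Without AKO replicate 2 or 3 the difference was 1.64 and 1.71, with an adjusted p of 0.0740 and 0.0694 (edgeR). The table has 1 transcript of Crtc2 (chromosome 3, mm10) with 1 value for its whole length, so a loss of single exons could not be seen. AKO and WT stand below for these labels. Crtc2 goes against them, and were the labels of the groups exchanged, every direction given here would turn, which was not tested.

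Of the 23 genes listed as components of the CREB and CRTC pathway, 2 were higher in AKO and 0 lower, with a median log2 fold change of 0.04 against -0.01 over all genes tested. Apart from Crtc2 the called gene was Sik2, the salt-inducible kinase most studied in fat cells, at 157, 138 and 121 CPM in WT and 179, 192 and 219 CPM in AKO (0.50 ± 0.13, edgeR adjusted p = 0.0461). Its groups did not overlap, but of the 6 fits that leave out 1 old library the call held in 1, without WT replicate 1. The sister coactivators Crtc1 (0.04 ± 0.11) and Crtc3 (0.04 ± 0.09) overlapped between the groups. The kinase Sik1, whose gene is itself induced by CREB, was at 189, 262 and 209 CPM in WT and 185, 134 and 113 CPM in AKO (-0.61 ± 0.23, edgeR adjusted p = 0.141).

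Across the genome many more genes were lower in AKO than higher. The edgeR quasi-likelihood test called 897 of 15068 genes at an adjusted p under 0.05 (5.95%), 120 higher (0.796%) and 777 lower (5.16%). The falls were also larger. Their median log2 fold change was -1.81, and 642 fell more than 2-fold and 108 more than 8-fold, while the rises had a median of 0.61 and 16 exceeded 2-fold. The median of all genes tested was -0.01, with 7734 below 0 and 7331 above. The groups did not overlap for any of the 777 lower genes and for 119 of the 120 higher ones. Over all genes tested, the 3 AKO libraries lay above the 3 WT libraries for 2684 (17.8%) and below them for 3060 (20.3%).

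WT replicate 3 was the highest WT library for 683 of the 777 lower genes (87.9%) and the lowest for 89 of the 120 higher genes (74.2%). Without it 385 genes were called, 20 higher and 365 lower, and the median of the 777 lower genes was -1.25. Without AKO replicate 1, 2 or 3, 12, 5 and 4 genes were called. In each of these 4 fits all 897 genes kept their direction, which leaving out 1 library cannot turn where the groups do not overlap. All 897 genes also had an unadjusted p under 0.05 (edgeR). Their median adjusted p was 0.0243 with all libraries and 0.0675, 0.0699, 0.0945 and 0.124 in those fits. By DESeq2 1891 genes were called (525 higher, 1366 lower), by limma-voom 614, and with the 6 old libraries fitted alone 205. Among the calls of named genes, Gsta4 and Lum, a glutathione transferase and a matrix proteoglycan, held in each of the 21 alternative fits per gene.

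**Figure D1:**
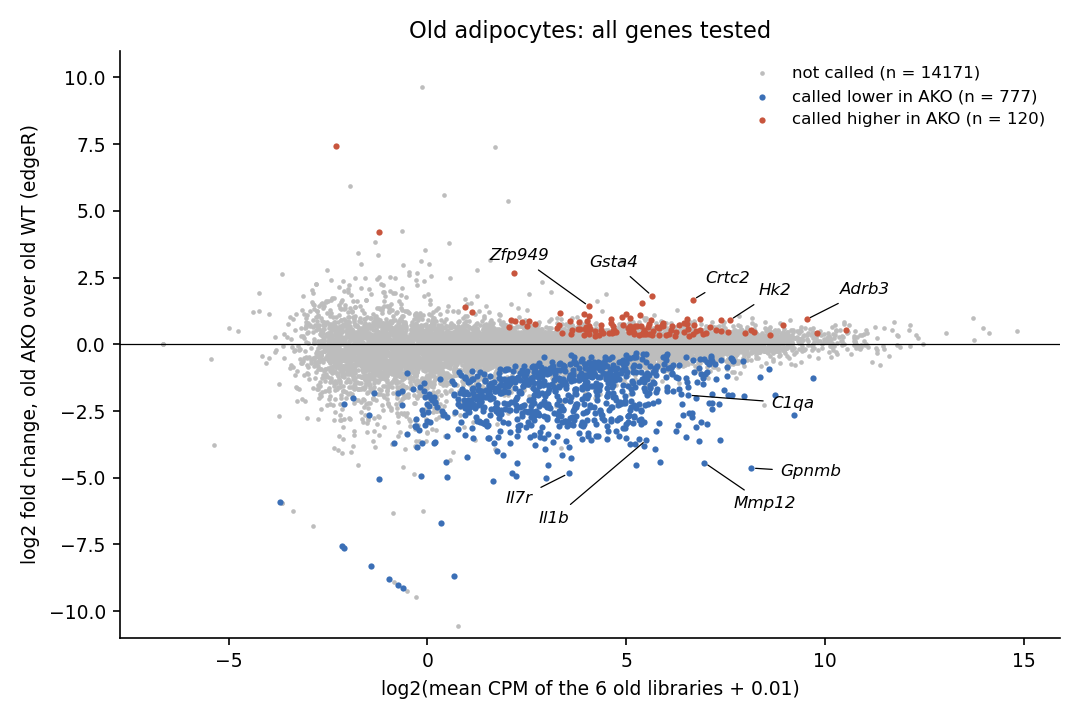
Log2 fold change of old AKO over old WT against log2(mean CPM of the 6 old libraries + 0.01) for the 15068 genes tested, with the 120 called higher in red, the 777 called lower in blue and the rest in grey. The falls reach much further from 0 than the rises, except at the lowest levels, where fitted values are unstable.

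Known target genes of CREB and its coactivators leaned lower in AKO. Of 25 tested, 6 were lower and 0 higher, against 5.16% and 0.796% of all genes tested, and the median was -0.52. The summed level of the list overlapped, at 9285, 9930 and 10470 CPM in WT and 9290, 8830 and 8298 CPM in AKO (exact two-sided permutation p = 0.2). Summed macrophage markers, given below, were also lower in every AKO library, and their part in these falls was not tested. The called genes were Areg, which encodes the growth factor amphiregulin, the nuclear receptor genes Nr4a2 and Nr4a3, Rgs2, a brake on G protein signalling, Pde4b, a phosphodiesterase that breaks down cyclic AMP, and Ptgs2, cyclooxygenase-2. Rgs2 and Pde4b are themselves brakes on this signal. Without WT replicate 3 the list had a median of -0.51 and 1 member called, Areg (-1.59), without WT replicate 1 or 2 it had 3 and 4, and without AKO replicate 1, 2 or 3 it had 0.

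CRE half-sites (the letters TGACG on either strand) lie near the start sites of most genes of this list, whether they fell or not. The promoters of 5 that fell are shown. Each is the 250 bases before the RNA start on the gene's own strand, from RefSeq (GRCm38.p6), 5′ to 3′, with half-sites in capitals. They lie at chr5:91139349-91139598 (plus strand), chr1:144004150-144004399 (minus), chr4:48045055-48045304 (plus), chr2:57124004-57124253 (minus) and, for 1 of the 4 listed Pde4b starts, chr4:102421305-102421554 (plus).
Areg: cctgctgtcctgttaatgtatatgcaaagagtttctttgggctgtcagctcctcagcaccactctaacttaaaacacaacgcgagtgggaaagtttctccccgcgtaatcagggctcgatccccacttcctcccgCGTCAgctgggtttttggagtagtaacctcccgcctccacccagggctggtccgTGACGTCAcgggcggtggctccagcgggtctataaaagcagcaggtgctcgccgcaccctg
Rgs2: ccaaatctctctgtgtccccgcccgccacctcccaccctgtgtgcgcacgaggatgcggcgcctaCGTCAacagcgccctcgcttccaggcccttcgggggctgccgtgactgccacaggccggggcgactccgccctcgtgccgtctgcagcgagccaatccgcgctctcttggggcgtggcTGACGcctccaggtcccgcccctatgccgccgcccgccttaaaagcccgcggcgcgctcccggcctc
Nr4a3: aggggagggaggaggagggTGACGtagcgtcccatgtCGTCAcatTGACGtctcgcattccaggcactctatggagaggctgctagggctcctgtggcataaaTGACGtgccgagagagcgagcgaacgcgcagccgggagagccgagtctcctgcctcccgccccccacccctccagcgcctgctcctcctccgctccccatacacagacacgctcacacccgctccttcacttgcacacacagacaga
Nr4a2: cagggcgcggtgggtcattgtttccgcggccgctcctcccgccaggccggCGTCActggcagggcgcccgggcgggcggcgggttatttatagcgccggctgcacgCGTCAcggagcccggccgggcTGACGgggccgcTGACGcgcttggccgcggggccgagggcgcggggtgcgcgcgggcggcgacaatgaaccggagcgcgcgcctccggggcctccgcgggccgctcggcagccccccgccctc
Pde4b: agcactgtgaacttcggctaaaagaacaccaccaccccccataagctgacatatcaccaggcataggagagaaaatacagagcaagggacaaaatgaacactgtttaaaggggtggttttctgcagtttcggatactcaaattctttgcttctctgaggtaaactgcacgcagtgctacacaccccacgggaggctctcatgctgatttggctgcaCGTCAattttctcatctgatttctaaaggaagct

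Areg has 3 half-sites, and a pair of them overlap to form the palindromic full CRE, TGACGTCA, that begins 61 bases before the start. Nr4a2 and Nr4a3 have 4 half-sites each, Rgs2 has 2 and the Pde4b start shown has 1, while the other listed Pde4b starts have 0. In Ptgs2 the single half-site lies 14 bases after the start. Of the 21 list members with a RefSeq promoter (250 bases before to 50 after the start), 17 hold a half-site (81.0%) and 2, Areg and Dusp1, a full CRE. The list was drawn up from known CREB targets, so this share says nothing about the knockout. Over 11820 tested genes with a promoter in the table, 33.4% hold a half-site, against 26.3% of 619 called lower and 25.5% of 98 called higher. A full CRE is present for 3.32%, 2.58% and 0 of them. These letter matches are not measured binding sites.

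The values of the 6 genes follow. Areg was at 3.10, 3.36 and 10.5 CPM in WT and 1.31, 0.966 and 0.909 CPM in AKO (-2.41 ± 0.47, edgeR adjusted p = 0.0195). Rgs2 was at 31.2, 19.9 and 96.6 CPM in WT and 10.3, 10.6 and 11.2 CPM in AKO (-2.20 ± 0.51, edgeR adjusted p = 0.0332). In both, WT replicate 3 was far above the other WT libraries. Nr4a2 differed without that library standing out, at 25.6, 35.5 and 25.7 CPM in WT and 16.4, 12.4 and 12.8 CPM in AKO (-1.06 ± 0.25, edgeR adjusted p = 0.0331). So did Pde4b, at 64.7, 69.0 and 75.6 CPM in WT and 43.9, 32.9 and 27.9 CPM in AKO (-0.9996 ± 0.23, edgeR adjusted p = 0.0292). Nr4a3 and Ptgs2 fell by 1.47 ± 0.38 and 1.65 ± 0.41 on the log2 scale (edgeR adjusted p = 0.0492 and 0.0434). Among members that did not pass, the immediate-early gene Fos was at 2527, 2639 and 2646 CPM in WT and 2365, 2327 and 2330 CPM in AKO (-0.15 ± 0.11), and Pck1, the gluconeogenic and glyceroneogenic enzyme that CREB drives in liver, had 0.36 ± 0.38.

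**Figure D2:**
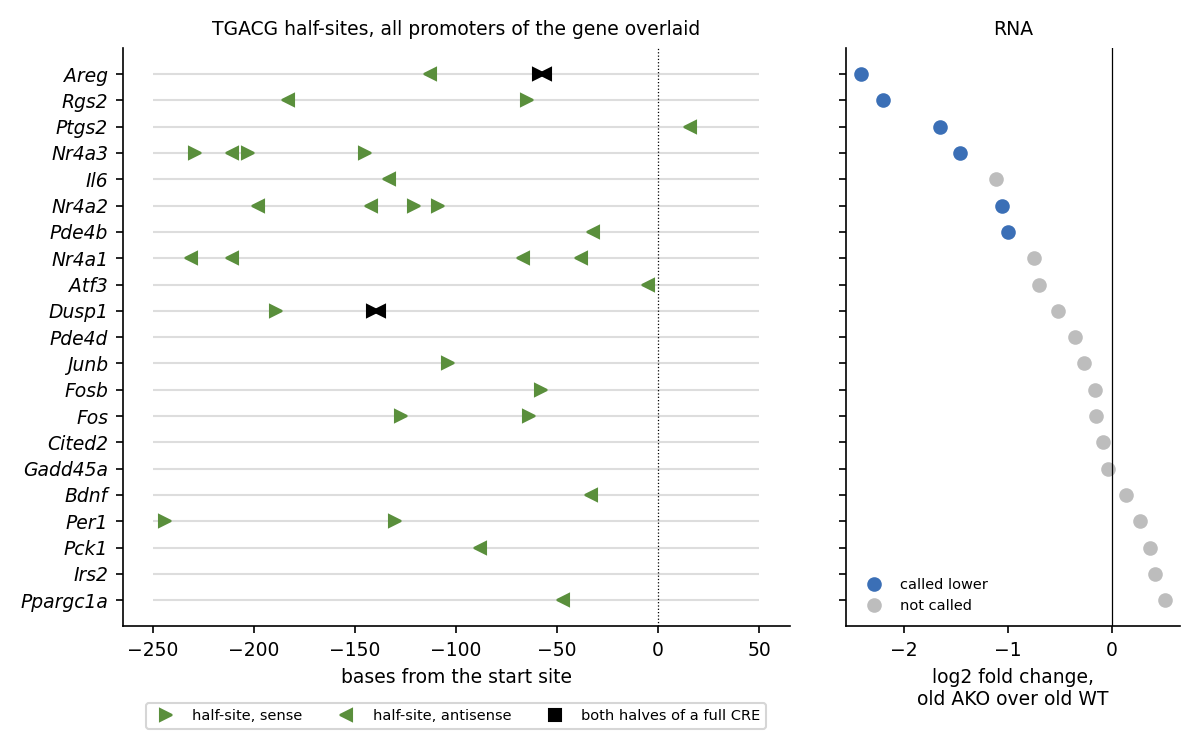
Left, positions of TGACG half-sites within 250 bases before to 50 after the start for the 21 CREB and CRTC target genes with a RefSeq promoter (arrowheads show the strand, black marks a full CRE, all listed starts of a gene overlaid). Right, each gene's log2 fold change in old AKO over old WT, blue where called lower: each of the 6 called genes has at least 1 half-site, and so do 11 of the 15 that were not called.

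Some genes of insulin action, lipolysis and fat cell identity were higher in AKO by small amounts, and most members of these lists did not pass the test. Of 28 genes of insulin signalling and glucose uptake 4 rose and 0 fell (median 0.15, with 10 below 0), of 27 lipolysis genes 3 rose (median 0.14, with 9 below 0) and of 32 adipocyte identity genes 4 rose (median 0.39, with 29 of 32 above 0). Hk2, the hexokinase that insulin induces, was at 147, 142 and 118 CPM in WT and 271, 246 and 243 CPM in AKO (0.90 ± 0.12, edgeR adjusted p = 0.0177). Irs1, the docking protein of the insulin receptor, was at 59.8, 63.1 and 58.3 CPM in WT and 95.8, 87.1 and 118 CPM in AKO (0.73 ± 0.13, edgeR adjusted p = 0.0189). For both genes the WT libraries lay within a narrow band below all AKO libraries. Slc2a4, the insulin-responsive glucose transporter GLUT4, and Gys1, glycogen synthase, rose by 0.54 ± 0.14 and 0.66 ± 0.17 (edgeR adjusted p = 0.0438 for both). The insulin receptor gene Insr had 0.41 ± 0.11 (edgeR adjusted p = 0.0614).

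On the side of catecholamine signalling, Adrb3, the beta-adrenergic receptor of fat cells, was at 482, 632 and 415 CPM in WT and 1006, 967 and 946 CPM in AKO (0.93 ± 0.22, edgeR adjusted p = 0.0320). Adcy6, an adenylyl cyclase that makes cyclic AMP, was at 268, 259 and 217 CPM in WT and 346, 343 and 329 CPM in AKO (0.45 ± 0.10, edgeR adjusted p = 0.0249). Plin1, which coats the lipid droplet and gates its lipases, rose by 0.55 ± 0.14 (edgeR adjusted p = 0.0407). The receptor that starts the pathway, the cyclase that carries it and the droplet protein at its end were thus each higher. The lipases themselves did not pass: Pnpla2, adipose triglyceride lipase, was at 2015, 1834 and 1843 CPM in WT and 3099, 2533 and 3190 CPM in AKO (0.63 ± 0.19, edgeR adjusted p = 0.0844), and Lipe, hormone-sensitive lipase, had 0.38 ± 0.13 (edgeR adjusted p = 0.128). Without WT replicate 3, Hk2 and Irs1 were the members of these 3 lists still called, and without AKO replicate 1, 2 or 3 there were 0. DESeq2 called 6, 7 and 12 members of the lists higher, and 2 lipolysis genes lower.

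Genes of lipid and amino acid metabolism leaned the same way but seldom passed the test. In fatty acid and triglyceride synthesis, 1 of 25 genes rose, Mlxipl, the carbohydrate-sensing transcription factor ChREBP, at 59.5, 82.7 and 63.6 CPM in WT and 112, 124 and 115 CPM in AKO (0.77 ± 0.19, edgeR adjusted p = 0.0431). The list median was 0.50, with 22 of 25 above 0. Fasn, fatty acid synthase, was at 2170, 3817 and 1379 CPM in WT and 4092, 4576 and 4436 CPM in AKO (0.83 ± 0.65, edgeR adjusted p = 0.493), with a wide spread in WT. In branched-chain amino acid catabolism 24 of 26 genes lay above 0 (median 0.32) and 1 was called, Bckdhb, a subunit of the dehydrogenase complex that commits these amino acids to breakdown. Bckdhb was at 73.9, 83.5 and 78.2 CPM in WT and 130, 126 and 138 CPM in AKO (0.74 ± 0.14, edgeR adjusted p = 0.0189), and stayed called without WT replicate 3 (0.75). The call of Bckdhb was lost without AKO replicate 1, 2 or 3, and so was that of Mlxipl, which was also lost without WT replicate 1 or 3.

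Of 44 nuclear genes of oxidative phosphorylation 0 were called, but 39 lay above 0, with a median of 0.15. In 32 of the 44 the AKO libraries were all above WT and in 1 all below, against 17.8% and 20.3% of all genes tested. The tricarboxylic acid cycle list had 22 of 23 above 0 and 0 called (median 0.24), and its summed level was 6295, 5883 and 5561 CPM in WT and 6833, 7120 and 7427 CPM in AKO. That sum differed with an exact two-sided permutation p = 0.1, the smallest that 3 against 3 libraries allow. At an unadjusted p under 0.05 the lists had 9 and 8 genes higher and 1 lower each, and DESeq2 called 6 of the first and 3 of the second, all higher. Cholesterol synthesis, fatty acid oxidation and thermogenic genes had 0 called by edgeR, with medians of 0.21, 0.15 and 0.02. At an unadjusted p under 0.05 they had 3, 8 and 2 genes higher and 0, 0 and 2 lower, and by DESeq2 0 called, 3 higher and 1 lower. In the mTORC1 and amino acid sensing list 1 of 29 rose, the kinase gene Mtor itself, by 0.30 ± 0.07 (edgeR adjusted p = 0.0407), and this was lost without WT replicate 1 or 3 or any 1 AKO library.

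Some genes of the circadian clock were higher in AKO. Of 22 tested, 3 rose and 0 fell (median 0.48). Per2 and Per3, period genes of the repressing arm of the clock, were higher: Per2 at 18.8, 20.4 and 19.9 CPM in WT and 43.2, 41.2 and 34.7 CPM in AKO (1.01 ± 0.22, edgeR adjusted p = 0.0248), and Per3 by 1.10 ± 0.25 (edgeR adjusted p = 0.0288). Tef, an output regulator of the clock, was at 85.9, 89.2 and 63.0 CPM in WT and 159, 150 and 151 CPM in AKO (0.95 ± 0.25, edgeR adjusted p = 0.0483). Its relatives Dbp (1.89 ± 0.60, edgeR adjusted p = 0.0947) and Hlf (0.97 ± 0.28, edgeR adjusted p = 0.0720), and the repressor Nr1d1 (0.81 ± 0.28, edgeR adjusted p = 0.116), did not pass, though the AKO libraries lay above WT for each. The activating arm had no call and no common direction, with Npas2 at -1.28 ± 0.37 (edgeR adjusted p = 0.0671) and Arntl, which encodes BMAL1, at -0.99 ± 0.37 (edgeR adjusted p = 0.148), but Clock at 0.48 ± 0.52 (edgeR adjusted p = 0.630). Cry1, of the repressing arm, was at -0.35 (edgeR adjusted p = 0.505). An E-box (CACGTG), the motif bound by the activating arm, is in the RefSeq promoter of 18.4% of 98 called higher genes, 8.89% of 619 called lower and 11.3% of 11820 tested. The labels give no time of day for the collection, so its part was not tested. Without WT replicate 1, 2 or 3 the list had 1, 2 and 0 genes called, and without any 1 AKO library 0.

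Among the largest rises were a detoxifying enzyme and genes of mixed function. Gsta4, a glutathione transferase that clears the lipid peroxidation product 4-hydroxynonenal, was at 22.5, 25.8 and 18.0 CPM in WT and 73.6, 78.3 and 81.8 CPM in AKO (1.82 ± 0.19, edgeR adjusted p = 0.00562). Its lowest AKO library was well above its highest WT library, and Mgst2, a microsomal glutathione transferase, also rose (0.59 ± 0.11, edgeR adjusted p = 0.0194). Of the 21 glutathione transferases tested these 2 were called, with 19 above 0 (median 0.30). Zfp949, a zinc finger gene, was at 8.89, 9.93 and 8.30 CPM in WT and 22.01, 26.4 and 24.5 CPM in AKO (1.43 ± 0.19, edgeR adjusted p = 0.0175). Sox9, a transcription factor of cartilage and of progenitor cells, was low but separate, at 1.18, 1.57 and 1.17 CPM in WT and 3.51, 2.91 and 2.71 CPM in AKO (1.22 ± 0.20, edgeR adjusted p = 0.0189). Of the other largest rises, Gpr152 (1.41), Steap2, a metalloreductase (1.17), the adhesion receptor Adgrg2 (1.14), the zinc finger gene Bnc2 (1.13), Dennd2d (1.04) and Echdc2 (1.00) had an adjusted p between 0.0221 and 0.0472 (edgeR). Ces1f, a carboxylesterase with close copies nearby, had 0.95, and Mettl27, whose gene ID is split over 2 symbols, had 9.83, 2.25 and 11.5 CPM in AKO against 1.102 to 1.304 CPM in WT, so both are uncertain. Without AKO replicate 1, 2 or 3 the genes of this paragraph still called were Gsta4 in all 3 fits and Zfp949 without replicate 1. Without WT replicate 3, Gsta4 (1.70), Zfp949 (1.38), Sox9 (1.16), Ces1f (1.14) and Mgst2 (0.51) were called.

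**Figure D3:**
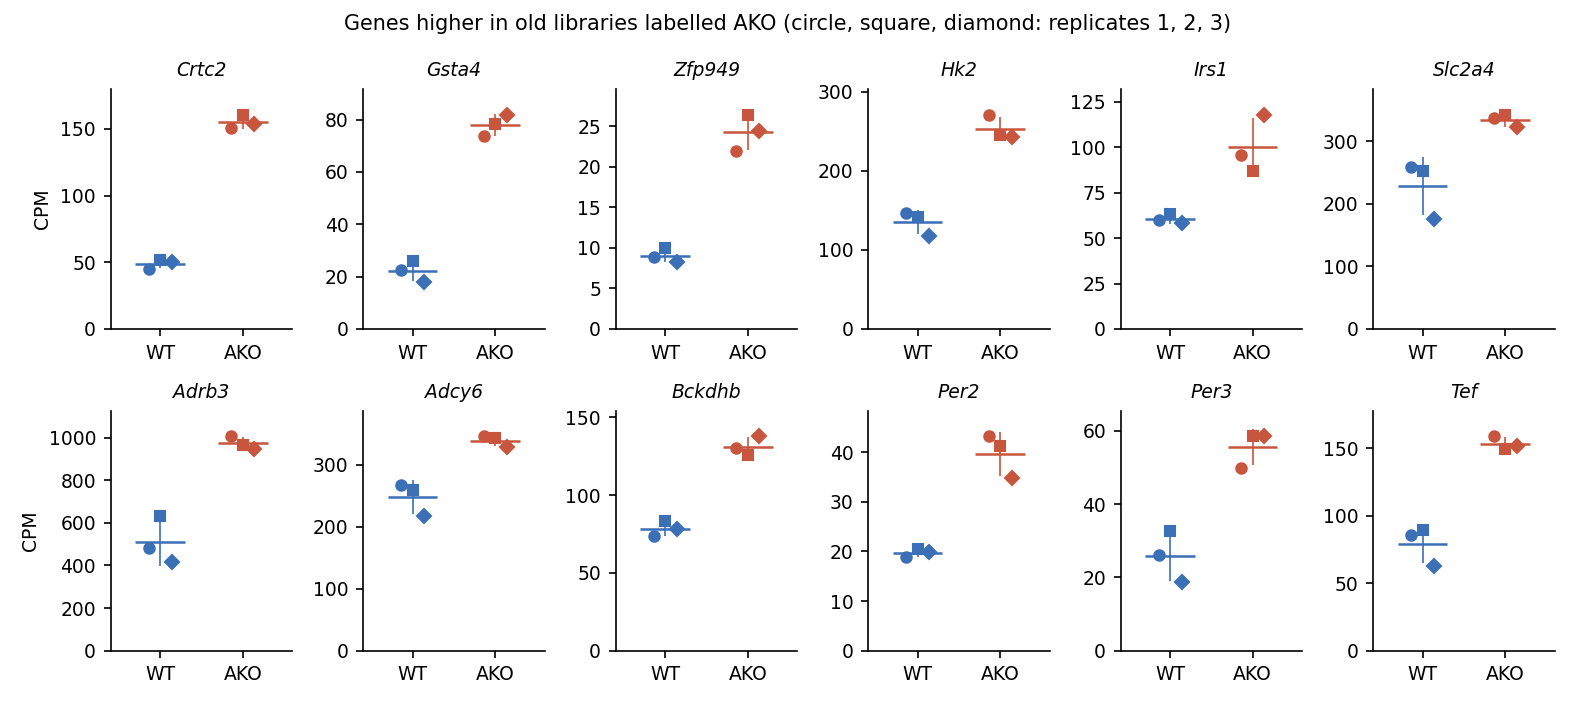
CPM of 12 genes called higher in AKO, 1 point per library (circle, square and diamond for replicates 1, 2 and 3) with the mean and SD of each group, on axes that start at 0. In every panel the 3 AKO libraries lie above the 3 WT libraries, and WT replicate 3 is the lowest library in all panels but those of Crtc2, Bckdhb and Per2.

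The falls were led by genes of macrophages. Of 26 pan-macrophage and monocyte markers 22 fell and 0 rose, with a median of -2.38, and of 25 genes known from lipid-associated macrophages, the lysosome-rich cells that gather around dying fat cells, 14 fell (median -3.06). C1qa, a chain of complement C1q, was at 125, 89.1 and 231 CPM in WT and 44.7, 40.8 and 33.1 CPM in AKO (-1.91 ± 0.30, edgeR adjusted p = 0.0189). Itgam, which encodes CD11b, was at 46.8, 29.5 and 156 CPM in WT and 10.8, 11.1 and 9.24 CPM in AKO (-2.90 ± 0.51, edgeR adjusted p = 0.0189). All AKO libraries were below all WT libraries, and WT replicate 3 stood above the other WT libraries. The summed level of the 26 markers was 2279, 1475 and 6358 CPM in WT and 695, 782 and 568 CPM in AKO (exact two-sided permutation p = 0.1, the smallest possible). In bulk RNA, fewer macrophages and less of these RNAs per macrophage cannot be told apart.

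Among genes of lipid-associated macrophages, Gpnmb, a membrane glycoprotein, was at 183, 66.3 and 1383 CPM in WT and 17.4, 36.1 and 12.02 CPM in AKO (-4.64 ± 1.04, edgeR adjusted p = 0.0279). Mmp12, macrophage elastase, was at 124, 53.9 and 537 CPM in WT and 8.52, 15.8 and 8.75 CPM in AKO (-4.44 ± 0.81, edgeR adjusted p = 0.0189). Trem2, the lipid-sensing receptor that defines these cells, was at 35.8, 16.8 and 189 CPM in WT and 5.65, 7.39 and 4.16 CPM in AKO (-3.81 ± 0.78, edgeR adjusted p = 0.0217). WT replicate 3 exceeded the next WT library several times over in these 3 genes, and the other WT libraries were still above AKO. Dcstamp and Atp6v0d2, which serve cell fusion and the proton pump in osteoclasts and macrophages, fell by 4.01 ± 0.65 and 4.54 ± 0.88 on the log2 scale (edgeR adjusted p = 0.0189 and 0.0194). The 2 members above 0 were Acp5, an acid phosphatase (0.29), and Apoe, apolipoprotein E, which fat cells also make (0.23 ± 0.21), and neither was called. The summed level of this list overlapped between the groups, at 11440, 10030 and 16890 CPM in WT and 10610, 10920 and 9377 CPM in AKO (exact two-sided permutation p = 0.4). Its most abundant members weigh most in such a sum.

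Genes typical of resident tissue macrophages were lower too. Of 22, 13 fell and 0 rose (median -1.16). Cbr2, a carbonyl reductase, was at 57.9, 45.04 and 49.6 CPM in WT and 25.8, 24.6 and 23.3 CPM in AKO (-1.05 ± 0.12, edgeR adjusted p = 0.00906). F13a1, coagulation factor XIII, was at 131, 90.9 and 109 CPM in WT and 47.8, 46.4 and 43.9 CPM in AKO (-1.26 ± 0.20, edgeR adjusted p = 0.0189). For neither gene was WT replicate 3 the highest library. Mrc1, the mannose receptor CD206, was at 116, 75.7 and 198 CPM in WT and 39.97, 35.7 and 31.2 CPM in AKO (-1.87 ± 0.32, edgeR adjusted p = 0.0189). Lyve1, Folr2 and Cd163, scavenging and folate receptors of perivascular macrophages, fell by 1.15 ± 0.26, 1.83 ± 0.34 and 0.91 ± 0.18 (edgeR adjusted p between 0.0189 and 0.0316). The ratio of the summed lipid-associated to the summed resident genes overlapped, at 3.84, 4.11 and 5.18 in WT and 5.49, 5.85 and 4.97 in AKO (exact two-sided permutation p = 0.2). The mean lipid-associated sum in AKO was 0.806 of WT, although the median log2 fold change of its members was -3.06. Abundant members that changed little thus weigh most in that sum, and the ratio does not show the balance of these kinds of macrophage.

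Without WT replicate 3 the pan-macrophage list had 18 of 26 called (median -1.54), the lipid-associated list 11 of 25 (median -1.95) and the resident list 10 of 22 (median -1.14). Without AKO replicate 1, 2 or 3 the pan-macrophage medians were -2.38, -2.53 and -2.22, but 0 members were called, and the resident list had 1 (Cbr2), 0 and 0. With the 6 old libraries fitted alone 0 of the pan-macrophage, 0 of the lipid-associated and 4 of the resident genes were called. By limma-voom these counts were 17, 3 and 15, and by DESeq2 23, 17 and 17.

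**Figure D4:**
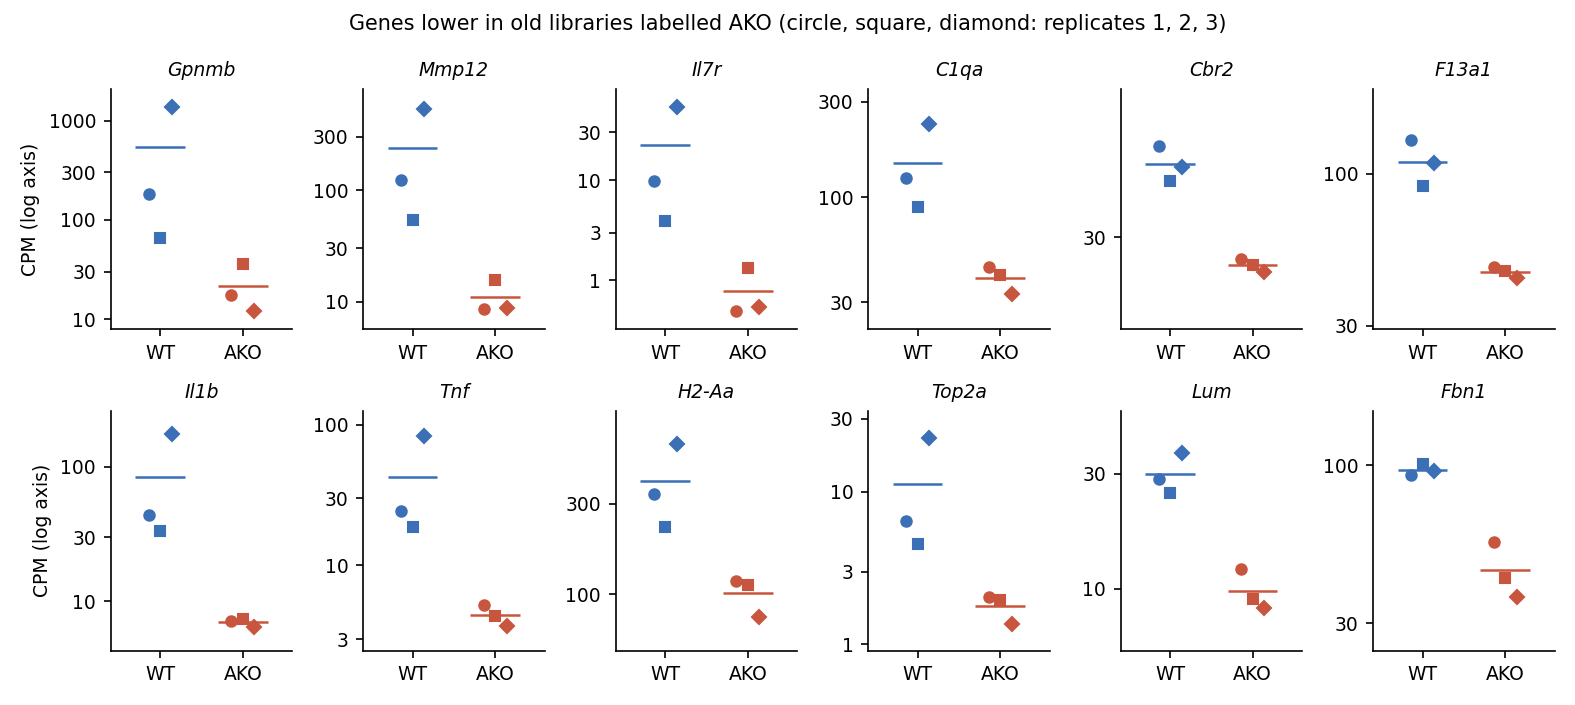
CPM on a log axis of 12 genes called lower in AKO, 1 point per library (circle, square and diamond for replicates 1, 2 and 3) with a line at the group mean. In every panel the 3 AKO libraries lie below the 3 WT libraries, and WT replicate 3 (blue diamond) is far above the other WT libraries for Gpnmb, Mmp12, Il7r, Il1b and Tnf but not for Cbr2, F13a1, Lum and Fbn1.

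Innate immune receptors and antigen presentation fell with the macrophage markers. Of 27 Fc receptor, Toll-like receptor and inflammasome genes 17 fell, and all 27 were below 0 (median -2.10). Nlrp3, the inflammasome sensor that starts interleukin-1 release, was at 11.9, 10.5 and 44.99 CPM in WT and 4.66, 2.29 and 2.59 CPM in AKO (-2.82 ± 0.59, edgeR adjusted p = 0.0224). The inhibitory Fc receptor Fcgr2b was at 29.2, 19.8 and 42.9 CPM in WT and 8.90, 10.4 and 8.68 CPM in AKO (-1.71 ± 0.23, edgeR adjusted p = 0.0189). Of 14 genes of MHC class II presentation 12 fell and all 14 were below 0 (median -1.90). H2-Aa, an MHC class II chain, was at 340, 226 and 621 CPM in WT and 118, 113 and 75.7 CPM in AKO (-1.96 ± 0.34, edgeR adjusted p = 0.0189), and Ciita, the regulator of the class II genes, fell by 2.26 ± 0.42 (edgeR adjusted p = 0.0189).

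MHC class I genes, which most cells carry, did not follow: 1 of 18 fell, the immunoproteasome subunit Psmb10 (-0.36 ± 0.09, edgeR adjusted p = 0.0412), and the median was -0.03. Lysosomal hydrolases and proton pump subunits, also used by many cells, had 2 of 32 called and 30 below 0 (median -0.41). The ratio of summed MHC class II to summed pan-macrophage CPM was 0.684, 0.736 and 0.456 in WT and 0.812, 0.670 and 0.653 in AKO, and overlapped (exact two-sided permutation p = 0.6). With 3 libraries per group this does not show that the lists fell alike, and the part of macrophages in the class II falls was not tested. When WT replicate 3 was left out, 10 of 27 receptor genes (median -1.46) and 10 of 14 class II genes (median -1.44) were called, and without AKO replicate 1, 2 or 3, 0 of either.

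Inflammatory signals were lower as well. Of 31 cytokine and receptor genes 12 fell and 0 rose (median -0.81), of 24 chemokines 8 fell (median -1.36) and of 17 chemokine receptors 7 fell (median -1.51). Il1b, interleukin-1 beta, was at 43.9, 33.7 and 174 CPM in WT and 7.14, 7.36 and 6.46 CPM in AKO (-3.58 ± 0.57, edgeR adjusted p = 0.0189). Tnf, tumour necrosis factor, was at 24.4, 18.9 and 83.7 CPM in WT and 5.20, 4.40 and 3.72 CPM in AKO (-3.25 ± 0.52, edgeR adjusted p = 0.0189). The AKO libraries agree closely for both genes, while the WT libraries spread widely. The anti-inflammatory genes Il1rn, the interleukin-1 receptor antagonist, and Il10 fell too, by 3.58 ± 0.59 and 2.91 ± 0.57 on the log2 scale (edgeR adjusted p = 0.0189 and 0.0195). Among chemokines, Ccl8 was at 24.5, 16.4 and 19.2 CPM in WT and 4.86, 8.71 and 10.1 CPM in AKO (-1.35 ± 0.27, edgeR adjusted p = 0.0215), and Ccl6, Ccl9 and Cxcl2 fell by 2.44 to 3.00 on the log2 scale. The monocyte receptor Ccr2 was at 15.3, 10.8 and 32.9 CPM in WT and 4.07, 4.65 and 4.65 CPM in AKO (-2.14 ± 0.36, edgeR adjusted p = 0.0189). Ccr3, the eosinophil receptor, had 20, 9 and 86 reads in WT and 0 in each AKO library, where a count of 0 allows up to 3 reads.

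Not all inflammatory genes were lower. The chemokine gene Cxcl1, which many cells make, had 250, 249 and 451 CPM in WT and 437, 220 and 238 CPM in AKO (-0.09 ± 0.35). Interferon-stimulated genes had 0 of 28 called and a median of -0.33 (3 lower at an unadjusted p under 0.05, 1 lower by DESeq2). With WT replicate 3 left out the counts called were 9 cytokine and receptor genes (median -0.70), 3 chemokines (median -1.08) and 5 chemokine receptors (median -1.28), and without AKO replicate 1, 2 or 3 they were 0. The pan-macrophage sum given above was also lower in each AKO library than in each WT library, and its part in the falls of cytokine and chemokine genes was not tested.

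Cell division genes were lower in AKO, at low levels. Of 30 tested 15 fell and all 30 were below 0 (median -1.78). Top2a, the topoisomerase of dividing cells, was at 6.44, 4.52 and 22.6 CPM in WT and 2.05, 1.95 and 1.36 CPM in AKO (-2.64 ± 0.54, edgeR adjusted p = 0.0217), and Cdk1, the kinase that starts mitosis, fell by 2.65 ± 0.52 (edgeR adjusted p = 0.0198). Pcna, the replication clamp, differed less, at 79.2, 74.5 and 120 CPM in WT and 55.1, 52.5 and 51.2 CPM in AKO (-0.79 ± 0.17, edgeR adjusted p = 0.0254). The ratio of the summed division genes to the pan-macrophage sum was 0.0882, 0.113 and 0.0674 in WT and 0.172, 0.141 and 0.188 in AKO (exact two-sided permutation p = 0.1, the smallest possible). This ratio follows from the sums: the AKO mean was 0.424 of WT for division genes and 0.202 for pan-macrophage markers. The part of macrophages in the division falls was not tested. The division sum was 200.9, 166.3 and 428.2 CPM in WT and 119.9, 110.5 and 107.0 CPM in AKO. Pcna, which fell less than the list median, was a large part of it, and the ratio without Pcna was not tested. In the list of CDK inhibitors and senescence regulators 5 of 20 fell and 0 rose (median -0.27). They were Lmnb1, a lamin whose loss marks senescence, Plaur, the urokinase receptor, the stress cytokine gene Gdf15, Mdm2, which restrains p53, and the CDK inhibitor Cdkn1b (-0.49 ± 0.12, edgeR adjusted p = 0.0436). The CDK inhibitor Cdkn1a, encoding p21, was at 239, 296 and 303 CPM in WT and 148, 126 and 135 CPM in AKO (-1.04 ± 0.28, edgeR adjusted p = 0.0591). In the fit without WT replicate 3, 3 division genes (median -1.02) and 2 genes of the senescence list were called. Without WT replicate 2 these counts were 23 and 3, and without AKO replicate 1, 2 or 3, 0 of both.

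Genes of the extracellular matrix and of fibroblast-like progenitors fell in part. Of 34 matrix glycoproteins and proteoglycans 6 fell (median -0.60), of 28 matrix proteases, inhibitors and cross-linking enzymes 8 fell (median -0.58) and of 23 collagens 0 were called (median -0.31), with 4 lower at an unadjusted p under 0.05 and 2 by DESeq2 and by limma-voom. Lum, the proteoglycan lumican that spaces collagen fibrils, was at 28.6, 24.9 and 36.6 CPM in WT and 12.1, 9.05 and 8.31 CPM in AKO (-1.61 ± 0.17, edgeR adjusted p = 0.00540). Fbn1, the microfibril protein fibrillin-1, was at 93.0, 101 and 96.0 CPM in WT and 55.8, 42.3 and 36.5 CPM in AKO (-1.11 ± 0.23, edgeR adjusted p = 0.0222). Both were separate in every library, and the call of Lum held without any 1 library. Fn1, Postn and Dcn, which encode fibronectin, periostin and decorin, fell by 1.70 ± 0.32, 0.96 ± 0.21 and 0.94 ± 0.24 on the log2 scale. Of the enzymes, Loxl2, a collagen cross-linker, was at 23.8, 25.7 and 27.2 CPM in WT and 13.6, 11.3 and 9.90 CPM in AKO (-1.14 ± 0.21, edgeR adjusted p = 0.0189), and Mmp14, a membrane collagenase, fell by 1.03 ± 0.20 (edgeR adjusted p = 0.0190).

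Of 23 progenitor and fibroblast markers 5 fell and 1 rose (median -0.67). Pdgfra, the receptor that marks fat progenitors, was at 23.4, 28.5 and 30.0 CPM in WT and 11.8, 10.2 and 8.23 CPM in AKO (-1.44 ± 0.32, edgeR adjusted p = 0.0259). Fgf10, a growth factor that promotes fat cell formation, was the rise, at 46.2, 47.4 and 40.8 CPM in WT and 63.3, 66.1 and 76.5 CPM in AKO (0.62 ± 0.13, edgeR adjusted p = 0.0217). In the TGF-beta, BMP and activin pathway 3 of 31 genes fell (median -0.07), among them the secreted protein gene Fstl1 and the receptor gene Tgfbr2, which fell by 1.23 ± 0.19 and 0.49 ± 0.12 on the log2 scale (edgeR adjusted p = 0.0189 and 0.0438). Without WT replicate 3 the counts called were 2 of 34 matrix glycoproteins, 5 of 28 proteases and related enzymes and 1 progenitor marker. Without WT replicate 1 or 2, 4 matrix glycoproteins were called in each fit, and 3 and 1 progenitor markers were called lower. Without AKO replicate 1, 2 or 3 the counts were 1 (Lum), 0 and 0 in each fit.

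The largest falls among genes at 1 CPM or more were mostly genes named above or other myeloid genes. Gdf3, a TGF-beta family ligand, was at 3.04, 1.18 and 14.1 CPM in WT and 0.131, 0.258 and 0.135 CPM in AKO (-5.11, edgeR adjusted p = 0.0259). Il7r, the interleukin-7 receptor, was at 9.81, 3.91 and 54.0 CPM in WT and 0.492, 1.32 and 0.539 CPM in AKO (-4.84 ± 0.89, edgeR adjusted p = 0.0189). Adam8, a membrane protease of leukocytes, was at 46.9, 22.6 and 258 CPM in WT and 4.48, 7.21 and 3.52 CPM in AKO (-4.43, edgeR adjusted p = 0.0189). WT replicate 3 was again the highest library of each, and WT replicate 2 the lowest WT library. Pira1 and Myh15 had larger fitted falls, but with 0 to 2 reads in each AKO library, so no fold is given.

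Markers of other cells had fewer calls. Endothelial markers had 1 of 21 called (Lyl1, -1.17 ± 0.25, edgeR adjusted p = 0.0254), all 21 below 0 and a median of -0.53. Pecam1, the endothelial adhesion molecule, overlapped between the groups at 247, 337 and 196 CPM in WT and 213, 160 and 140 CPM in AKO (-0.60 ± 0.25). Dendritic cell markers had 4 of 15 called (median -0.76), T and NK cell markers 2 of 16 (median -0.92), B and plasma cell markers 3 of 14 (median -0.98) and neutrophil markers 2 of 6 (median -0.94), all lower. Several of these called genes, such as Irf8, Il7r and Blnk, are also expressed by myeloid cells. Smooth muscle, mesothelial, mast cell, Schwann cell, skeletal muscle and erythroid markers had 0 called by edgeR, with medians between -0.54 and -0.11 (1 smooth muscle marker lower by DESeq2). At an unadjusted p under 0.05 they had 4, 0, 1, 1, 0 and 0 members lower, in that order. The summed adipocyte identity genes were at 75300, 72210 and 59750 CPM in WT and 88240, 97790 and 92570 CPM in AKO (exact two-sided permutation p = 0.1, the smallest possible). CPM are shares of a library, so RNA gained by 1 cell type lowers the shares of the rest, and the part of this in the rises above was not tested. The adipocyte identity list had 0 called and a median of 0.34 without WT replicate 3.

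The remaining lists had few calls. Adipokines had 1 of 23 lower (C1qtnf2, -1.03), angiogenic ligands and receptors 2 of 23 lower (Pgf, placental growth factor, -1.36, and the semaphorin and VEGF receptor Nrp2, -1.04), and the WNT pathway 1 of 25 lower (the WNT antagonist Sfrp1, -1.15). Amino acid transporters had 2 of 23 lower (Slc38a1 and the cystine importer Slc7a11), and antioxidant enzymes and NRF2 targets 1 of 25 lower (Slc7a11, -1.87). Unfolded protein response genes had 0 of 24 called and heat shock proteins 0 of 18, by edgeR and by DESeq2, with 1 and 2 higher at an unadjusted p under 0.05. Of the germ cell and epididymal lists, 5 of 12 and 3 of 15 genes could be tested, and edgeR called 0. At an unadjusted p under 0.05 they had 2 higher and 2 lower, and DESeq2 called 1 epididymal gene lower.

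**Figure D5:**
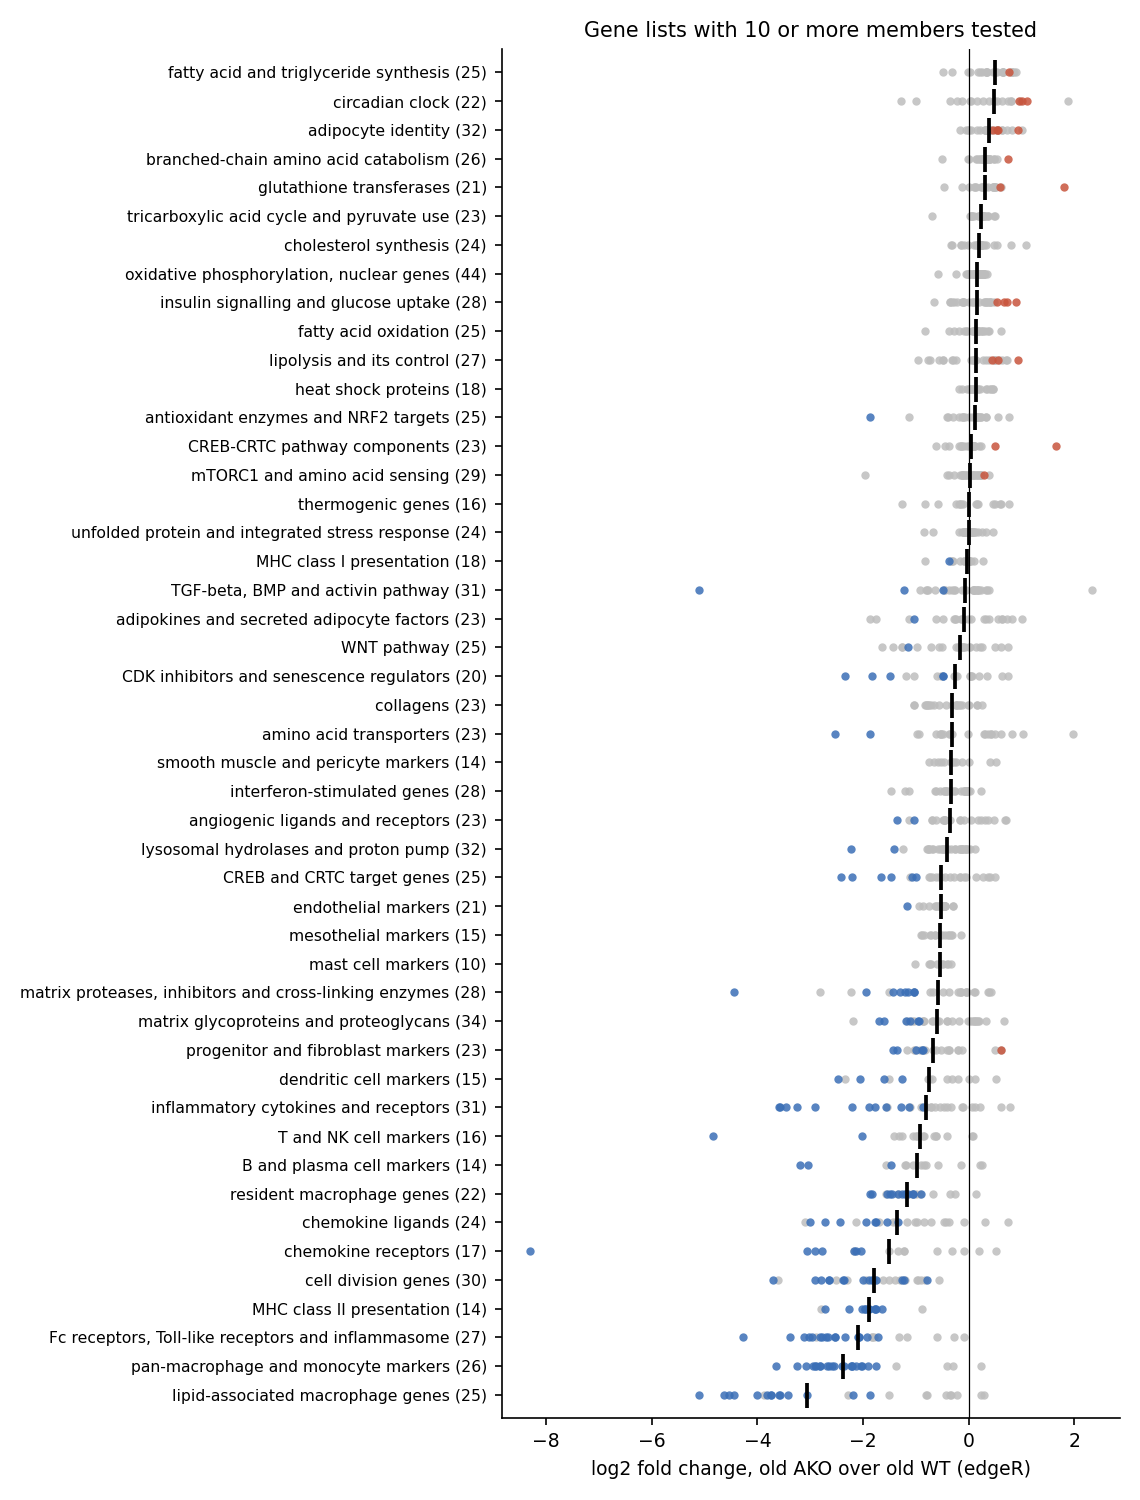
Log2 fold change of old AKO over old WT for the tested members of each list with 10 or more (number in brackets), red where called higher, blue where called lower, grey where not called, with a black tick at the list median. Lists run from lipid-associated macrophage genes at the bottom (median -3.06) to fatty acid and triglyceride synthesis at the top (0.50).

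The old differences were also set against those of the same genotypes at 3 months. The test of the difference between ages called 1 of 15068 genes (0.00664%), Zfp973, and 1409 had an unadjusted p under 0.05, while DESeq2 called 57. None of the 897 genes called in old libraries was called in that edgeR test. At 3 months 147 genes were called, 64 of them among the 897. Gsta4 and Zfp949 had like differences at both ages, 1.69 ± 0.19 and 1.53 ± 0.19 at 3 months, as had Crtc2 (1.89 ± 0.21). For the macrophage genes C1qa and Gpnmb the young difference was smaller in size, at -0.96 ± 0.30 and -0.74 ± 0.91. Neither was called in the test of the difference between ages (edgeR adjusted p = 0.507 for Gpnmb), so an age dependence was not shown. The macrophage lists as wholes were not compared between the ages.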

How the data were processed

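RNA of primary adipocytes was made into poly-A selected libraries and sequenced, per the labels' protocols. The submitters' processing notes name HISAT2 2.1.0, HISAT, Bowtie2 and StringTie 1.3.4d and the build mm10, with no roles. The authors deposited estimated counts of reads per transcript (whole numbers) and FPKM for 36779 transcripts, and how reads of near-identical genes were shared out is not given in the sources used here. The counts were summed per gene symbol (24541 symbols, from which 0 mitochondrial transcripts are counted). FPKM, normalized by the authors for length and depth, served as an alternative.

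All 12 libraries, in 4 groups of 3, were fitted with edgeR 4.0.16 (TMM, its filter on low counts by group, quasi-likelihood F-test) in R 4.3.3, and the contrast was old AKO minus old WT. Genes were called at a Benjamini-Hochberg adjusted p under 0.05 over all 15068 genes tested. The SE is the log2 fold change divided by the square root of F, and CPM use TMM library sizes. The fit was tested on simulated data. A list is described by its calls and its median. Alternatives were DESeq2 1.42.0, limma 3.58.1, other filters and scalings, the old libraries alone, unsummed transcripts, a replicate block and leaving out each library. Promoter letters are from RefSeq (GRCm38.p6), matched by symbol.

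Named genes are the CREB and CRTC components, the 15 largest rises and 15 largest falls with groups apart and at least 1 CPM, and from each list the 6 members with the smallest p and the 3 with the highest CPM. Acp5, Adgre1, Arntl, Cd163, Cd3e, Ciita, Clock, Cry1, Cxcl2, Dusp1, Folr2, Il10, Lyve1, Nlrp3 and Trem2, and the genes under the other observations, lie outside that rule and were chosen after their values were seen. The lists and this rule were chosen with earlier results of these data known. Figures used matplotlib 3.10.9.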

Additional observations from a re-analysis of the deposited data

Results flagged for a closer look

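Zfp973, a zinc finger gene, was the 1 gene whose genotype difference differed between the ages by edgeR's test of that difference, with a log2 difference of -10.01 between the old and the young genotype effect (edgeR adjusted p = 0.00864). In old libraries it was at 1.57, 2.91 and 1.35 CPM in WT and 2.68, 2.16 and 3.01 CPM in AKO, and the groups overlapped (0.43 ± 0.31, edgeR adjusted p = 0.462). The gene is low and belongs to a family with near-identical copies, so its counts are uncertain.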

How the results depend on the processing

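The 897 calls (120 higher, 777 lower) became 1891 (525 and 1366) by DESeq2, 205 (76 and 129) with the 6 old libraries alone and 16 (8 and 8) with transcripts not summed. The higher calls alone became 202 with at least 1 CPM in 3 libraries, 64 and 69 by limma-trend on log2(FPKM + 0.1) and log2(FPKM + 1), and 72 with no filter on low counts. Leaving out 1 library at a time gave 4 to 1037 calls, 2 to 191 higher and 2 to 846 lower. The age difference had 1 call, and 57 by DESeq2, 7 with transcripts not summed, 2 and 0 by limma-trend with the smaller and larger pseudocount, 0 by limma-voom and 1 to 4 without 1 library; the old libraries alone give no such test. Crtc2 was between 1.64 and 1.74 without 1 library and between 1.54 and 1.69 under the other alternatives. The cause of these changes was not tested. Each alternative per gene kept the direction of those of the 897 genes that it tested. Where the groups do not overlap, leaving out a library could not have turned it.

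Crtc1 turned to -0.047 and -0.034 and Crtc3 to -0.037 and -0.032 on the FPKM scales with the smaller and larger pseudocount. Cxcl1 ranged from -0.47 to 0.27 over the fits without 1 library, above 0 in those without AKO replicate 2 (0.09), AKO replicate 3 (0.09) and WT replicate 3. These values did not pass the test.

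With the replicate number as a block 12 genes were called (5 higher, 7 lower), and 0 for the age difference. The labels do not say that equal numbers mark a pair, and the deviations of same-numbered old libraries from their group means had correlations of -0.21, -0.05 and -0.11, so the numbers are not used as pairs.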

Other observations

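Apart from the lists, 3 homeobox genes of body position, picked after their values were seen, were among the genes called higher in AKO (0.796% of all genes tested). The rest of their family was not counted, so no shift of the family is shown. Hoxc5 was at 23.8, 24.9 and 19.8 CPM in WT and 36.0, 39.7 and 37.0 CPM in AKO (0.72 ± 0.11, edgeR adjusted p = 0.0189), and Hoxc6 at 21.0, 20.8 and 16.6 CPM in WT and 30.9, 31.9 and 32.0 CPM in AKO (0.70 ± 0.11). Hoxd4 rose by 0.63 (edgeR adjusted p = 0.0496). Tmsb4x, which encodes the actin-binding thymosin beta-4, was at 978, 1012 and 1522 CPM in WT and 592, 461 and 429 CPM in AKO (-1.25 ± 0.20, edgeR adjusted p = 0.0189).

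Chromosome 9 held 12 of the 120 higher genes, among 828 of its genes tested (1.45%, against 0.796% over all genes tested). Chromosomes 3, 4 and 8 had like shares (1.38%, 1.38% and 1.39%), and chromosomes 2 and 4 held more higher genes (14 and 13). In the window from 78191966 to 88571086 (mm10), chosen after the values were seen, 4 of 39 genes tested were higher (Gsta4, Bckdhb, Snap91 and Zfp949) and 3 lower. The ends of the window were set by these 4 genes, so their count in it was fixed in advance. Snap91, a neuronal endocytosis gene, was at 0 in each WT library and at 0.492, 0.193 and 0.471 CPM in AKO.

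Besides Gsta4 and Lum, 2 genes were called in all 21 alternative fits per gene. Dynlt1b, a dynein light chain, was at 43.2, 38.1 and 37.9 CPM in WT and 16.1, 14.9 and 17.5 CPM in AKO (-1.30, edgeR adjusted p = 0.00198). Morf4l1-ps1, a pseudogene, was at 15.6, 15.7 and 15.8 CPM in WT and 25.9, 25.0 and 26.0 CPM in AKO (0.71, edgeR adjusted p = 0.00540). Both have near-identical copies that share reads, so their values are uncertain.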
